A study of Sus scrofa with 20 samples.

Results

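Metalloproteases and their inhibitors were described in backfat, the layer of fat beneath the skin along the back, of 20 Italian Large White pigs. The members were the loci of the deposited count table whose Ensembl identifier maps to 1 pig gene symbol of the ADAM (ADAMTS included), MMP or TIMP series, with MMP9 left out. There were 44 such loci of 23483, carrying 40 symbols: 12 ADAM loci, 18 ADAMTS loci, 13 MMP loci and 1 TIMP locus. A locus is a transcription unit assembled by Cufflinks, so ADAMTS5 was split over 3 loci, and ADAM12 and MMP11 over 2 each. Another 21 symbols of these series in the gene-name table had no locus of their own, among them TIMP3, TIMP4, MMP1, MMP3 and ADAMTS3, and TIMP2 had no entry there, so these genes are not analysed here.

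The groups were 10 females and 10 castrated males, 1 library per animal, with no treatment other than the castration that every male shared. All animals were Italian Large White, lived in 1 environment on 1 diet, weighed 150 to 160 kg and were slaughtered commercially. Females were 235 to 250 days old and castrated males 233 to 249 days. Polyadenylated RNA of the frozen tissue was read as paired 100 bp reads, and animals are named by labelled sex and a number given in sample order, which links no female to a male.

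Metalloproteases of these series use a zinc ion to cut proteins outside the cell. MMPs cut collagens and other matrix proteins, most ADAMs release the outer part of membrane proteins such as TNF and EGF receptor ligands, and ADAMTS enzymes are secreted and cut proteoglycans, procollagens and other matrix proteins. TIMPs bind the active site and block it, and in fat tissue the balance of these enzymes shapes the collagen mesh in which fat cells grow.

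The libraries held 25754778 to 51248122 counts (median 36922247). Of the 9 adipocyte markers looked for, 4 had a locus, and their mean levels were 479.5 FPKM (fragments scaled to transcript length and library size) for LIPE, 267 FPKM for PNPLA2, 626 FPKM for CIDEC and 181 FPKM for PPARG. The skeletal muscle marker ACTA1 stood between 0 and 4.17 CPM (counts scaled to library size). The summed level of 8 macrophage markers was highest in castrated male 1, at 1457 CPM, against 173 to 540.1 CPM in females and 240.3 CPM in the lowest castrated male. The same library was lowest in the sum of 13 fibroblast and matrix markers, at 12054 CPM. The members' results on those markers are therefore also given without it, while those of other genes are not. At 18 loci, none of them a member, the other 9 females and 9 castrated males did not overlap. The library labelled female 10 lay nearer the castrated male median at 16 of those loci, and the library labelled castrated male 10 nearer the female median at 17. Comparisons keep the labels as given and were repeated without both. In bulk tissue, fewer cells of a type and less RNA per cell cannot be told apart.

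The gelatinase MMP2 was the most abundant member. It cuts denatured collagen and type IV collagen, and its level was 299.7 ± 45.9 FPKM (SD, n = 20). ADAMTS4, an aggrecanase that cuts the proteoglycans aggrecan and versican, came next at 109 ± 87.9 FPKM. MMP19, a secreted enzyme that cuts basement membrane proteins, followed at 66.6 ± 32.2 FPKM, and MMP14, a membrane-bound collagenase, at 48.2 ± 11.1 FPKM. The lowest library of MMP2 stood at 211 FPKM and the highest of ADAMTS4 at 291 FPKM, so the ranges of MMP2 and ADAMTS4 overlapped, as did those of ADAMTS4 and MMP19. Within each library, however, MMP2 stood above ADAMTS4. The levels were closest in female 2, at 301 and 290 FPKM, and castrated male 2 held 353 and 291 FPKM. TIMP1, the measured inhibitor, stood at 42.1 ± 15.8 FPKM, with 84.4 FPKM in its highest library.

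The next levels lay close together. ADAMTS10, which binds fibrillin microfibrils, stood at 39.9 ± 7.73 FPKM and ADAMTS9, a versican-cutting enzyme, at 36.1 ± 15.2 FPKM. ADAM10, a sheddase that also starts Notch receptor cleavage, stood at 30.9 ± 4.71 FPKM, ADAMTS2, the enzyme that trims the N-terminal end of procollagens, at 27.5 ± 6.05 FPKM, and MMP27 at 25.9 ± 9.43 FPKM. From ADAMTS4 down to MMP27, no neighbours in this order differed in their means by more than the larger of their SDs. ADAM17, the sheddase that releases TNF, stood at 15.7 ± 1.56 FPKM. Read by CPM instead of per length, MMP2 and ADAMTS4 kept the highest ranks, while TIMP1, a short transcript, went from rank 5 to rank 19.

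**Figure D1:**
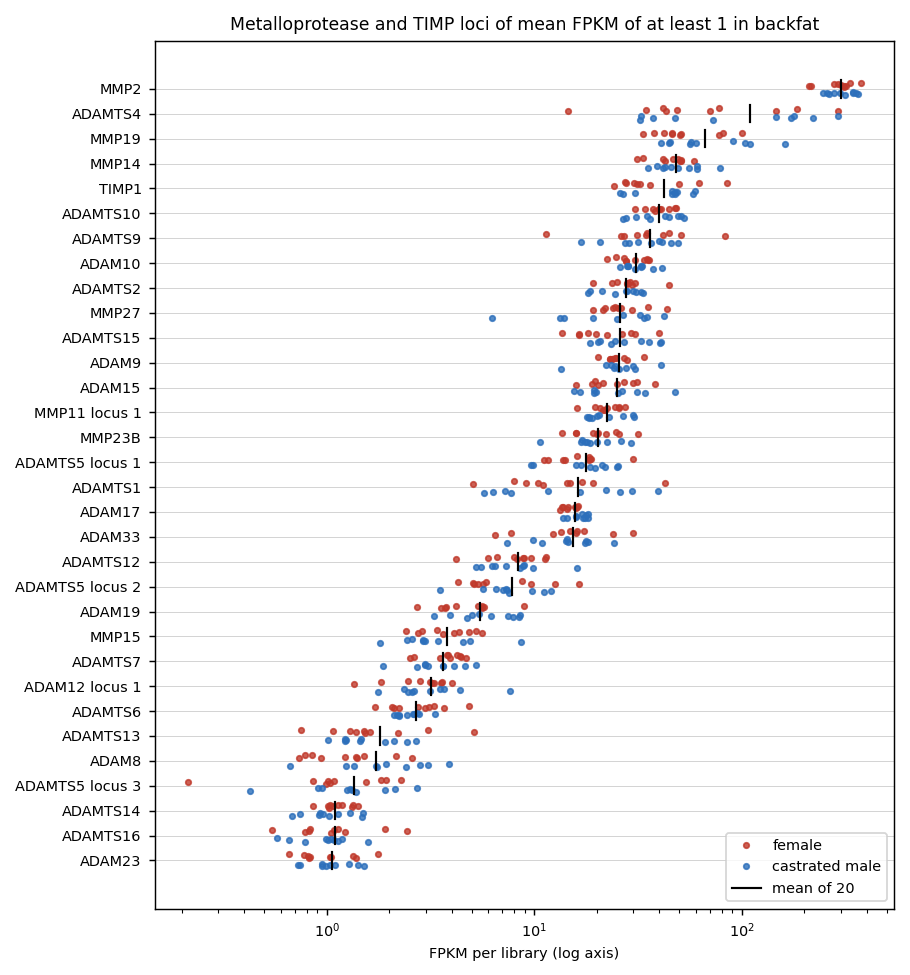
FPKM per library (log axis) of the member loci whose mean was at least 1, with females in red, castrated males in blue and the mean of 20 libraries as a black bar. MMP2 sits highest and narrow, while the points of ADAMTS4 run from 14.5 to 291 FPKM.

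Other MMPs were lower. MMP11, a stromelysin activated inside the cell, had 22.5 FPKM at its main locus, and the membrane-anchored MMP23B had 20.3 FPKM. The membrane-type enzymes MMP15, MMP16 and MMP25 stood at 3.81, 0.869 and 0.206 FPKM. Macrophage elastase MMP12 and the collagenases MMP8 and MMP13 stood at 0.371, 0.182 and 0.0865 FPKM. MMP13 held 0 to 44 counts per library and did not pass the filter on low counts. The second MMP11 locus held 0 counts in all 20 libraries, which allows up to 3 counts in each, although its deposited FPKM averaged 0.081. The substrate gene COL4A2 differed the other way, with a mean of 1389 CPM and of 0.264 FPKM. The counts and the FPKM may therefore rest on different gene models at some loci. The measures also placed both libraries numbered 10 differently, and the CPM ranges and spreads given here include them. Castrated male 10 was the highest library of ADAM10 by CPM, at 173 CPM, but held 26.0 FPKM where the mean was 30.9 FPKM. Its MMP2 stood at 705 CPM, the lowest castrated male, and at 342 FPKM, above the mean of 299.7 FPKM. Female 10 held 124 CPM of ADAM10 and the lowest FPKM, 22.4. For comparison, ADAM10 stood at 96.4 CPM and 24.8 FPKM in female 1, and at 163 CPM and 41.2 FPKM in castrated male 1. MMP23B stood at 21.1 CPM and 24.8 FPKM in female 10 and at 17.4 CPM and 29.1 FPKM in castrated male 10. In female 1 it stood at 37.1 CPM and 20.0 FPKM. The cause was not tested. Both differences limit levels ranked by FPKM beside tests made on counts.

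Most ADAM loci with a catalytic site were expressed at moderate levels. ADAM9 and ADAM15, broadly expressed membrane proteases, stood at 25.7 and 25.2 FPKM, and ADAM33, known from mesenchymal cells, at 15.4 FPKM. ADAM19 reached 5.50 FPKM, and the main ADAM12 locus, which sheds HBEGF, reached 3.17 FPKM. The leukocyte-associated ADAM8 and ADAM28 stood at 1.72 and 0.769 FPKM. ADAM22 and ADAM23, which lack the catalytic site and bind LGI proteins at synapses, stood at 0.885 and 1.06 FPKM. The second ADAM12 locus held 9 to 42 counts per library, and its FPKM averaged 0.774.

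Among the ADAMTS enzymes, the proteoglycan-cutting ADAMTS15 stood at 25.9 FPKM, the 3 loci of the aggrecanase ADAMTS5 at 17.7, 7.83 and 1.35 FPKM, and ADAMTS1, which cuts versican, at 16.2 FPKM. ADAMTS12 and ADAMTS7, both known to cut the cartilage protein COMP, stood at 8.32 and 3.64 FPKM. ADAMTS6 stood at 2.70 FPKM. ADAMTS13, which cuts von Willebrand factor, and ADAMTS14, a relative of ADAMTS2, stood at 1.82 and 1.10 FPKM. ADAMTS16, ADAMTS8, ADAMTS19 and ADAMTS20 averaged 1.09, 0.933, 0.801 and 0.468 FPKM.

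The 44 loci summed to 960 ± 179 FPKM (SD, n = 20), with the lowest sum of 749.9 FPKM in female 8 and the highest of 1317 FPKM in female 2. MMPs made up 51.6 ± 6.16% of that sum, ADAMTS enzymes 30.6 ± 6.52%, ADAMs 13.4 ± 2.11% and TIMP1 4.35 ± 1.27%. MMP2 alone took between 22.8% of it in female 2 and 45.5% in female 1. ADAMTS4 took between 1.76% in female 1 and 22.7% in castrated male 2. These shares are of the loci measured and leave out the TIMPs and proteases without a locus.

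How far the animals differed at each member was described without a test. The spread was the residual SD of log2 CPM around the mean of each sex. Its median was 0.50 over the 39 members of mean CPM of at least 1, and 0.35 over the 15770 loci at that level. Of the 39 members, 27 lay above the latter median, 5 lay above the 90th percentile of all loci (0.75) and 1 lay below the 10th (0.17). Without castrated male 1 the medians were 0.49 and 0.34.

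The member that varied least was ADAM17, with a residual SD of 0.16. Its level lay between 23.5 and 32.4 CPM in females (median 29.8) and between 26.0 and 35.7 CPM in castrated males (median 31.9), a 1.52-fold range over all animals. ADAM10 ranged from 96.4 to 139 CPM in females (median 120) and from 109 to 173 CPM in castrated males (median 127), with a residual SD of 0.22. MMP2 ranged from 649.6 to 1146 CPM in females (median 908) and from 705 to 1133 CPM in castrated males (median 873), with a residual SD of 0.24. The ranges of the sexes overlapped at each of these 3 genes. At ADAM10 and ADAM17 both the lowest and the highest castrated male lay above the lowest and the highest female. Castrated male 10 was the highest library of ADAM10 and the lowest castrated male of MMP2 by CPM, but not by FPKM.

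The widest spread at a well expressed member was that of ADAMTS4, with a residual SD of 1.28 and a 19.2-fold range. Its level ran from 67.0 to 1280.3 CPM in females (median 256) and from 124 to 1283 CPM in castrated males (median 481). On the CPM scale the libraries fell on both sides of a gap: 12 lay between 67.0 and 335 CPM and 8 between 651 and 1283 CPM. Both sexes were found on each side. Read as a ratio, the step from female 1 at 67.0 CPM to castrated male 10 at 124 CPM was of similar size. ADAMTS1 followed, from 21.9 to 179 CPM in females (median 55.0) and from 23.6 to 173 CPM in castrated males (median 59.6), with a residual SD of 0.94.

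The other members of wide spread were of low level. ADAMTS19, an ADAMTS with no well-known substrate, had a residual SD of 1.94: castrated male 7 held 17.4 CPM, castrated male 2 held 13.0 CPM and female 1 held 7.87 CPM, while the other libraries lay between 0.0712 and 1.27 CPM. ADAMTS5 locus 3 ran from 0.906 to 10.9 CPM (residual SD 0.83). ADAMTS8, an aggrecan-cutting enzyme, stood at 18.2 CPM in female 2 and between 1.15 and 5.01 CPM elsewhere (residual SD 0.80). ADAM28 stood at 10.5 CPM in castrated male 1 and between 0.862 and 4.89 CPM elsewhere (residual SD 0.75).

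**Figure D2:**
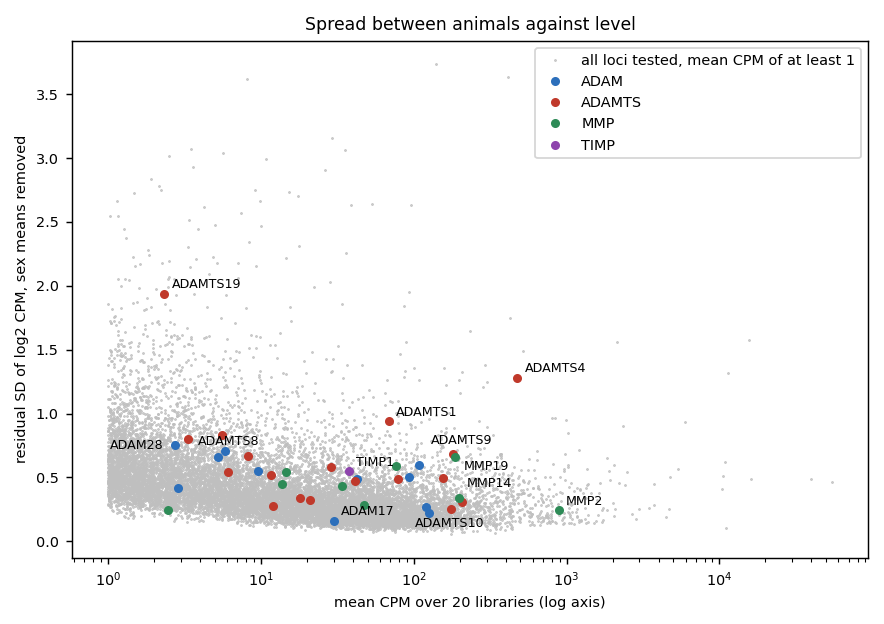
Residual SD of log2 CPM around the sex means against mean CPM over 20 libraries (log axis), for all loci tested of mean CPM of at least 1 (grey) and the members by family (coloured). ADAMTS19, ADAMTS4 and ADAMTS1 lie high, at 1.94, 1.28 and 0.94, and ADAM17 lies low, at 0.16.

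Females and castrated males were compared first, since sex is the grouping the labels give. No member passed the test between the sexes: edgeR's quasi-likelihood test called 0 of the 42 members tested at an adjusted p of at most 0.05, against 0.0% of 21587 loci. At an unadjusted p under 0.05 it had 1 member and 935 loci (4.33%). DESeq2 called 6 loci and limma-trend on FPKM 11, with 0 members in each. Without both libraries numbered 10 edgeR called 18 loci, again with 0 members. Of the 42 members 20 lay above 0, with a median log2 difference (females minus castrated males) of -0.0036, and 50.9% of all loci lay above 0. That fit held no age term. With age in the model, 27 of 42 members lay above 0, with a median of 0.056, and 49.7% of all loci lay above 0. Again 0 members were called, and 2 had an unadjusted edgeR p under 0.05. With the labels as given, no member, and none of the 21587 loci (0.0%), had CPM that did not overlap between the sexes. Over the 18 libraries other than those numbered 10, the sexes did not overlap at 18 loci, 0 of them members.

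MMP12 had the smallest p. It ranged from 0.0575 to 0.942 CPM in females (median 0.47) and from 0.129 to 4.32 CPM in castrated males (median 0.718). Its log2 difference was -1.30 (SE 0.53, unadjusted p = 0.0232, edgeR adjusted p = 1), and without castrated male 8, the highest library, -0.75. The sexes overlapped, with 4 castrated males above every female and the 2 lowest libraries both female. Next below 0 were ADAM8 at a log2 difference of -0.60 (SE 0.30) and ADAM28 at -0.64 (SE 0.34). Without castrated male 1 they were -0.43 and -0.24. Above 0, the smallest p values were those of ADAMTS8 at 0.67 (SE 0.39), ADAMTS20 at 0.36 (SE 0.22) and ADAMTS16 at 0.31 (SE 0.23). The ADAMTS8 value was -0.0069 without female 2.

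The inhibitor and the best-known enzymes did not pass between the sexes, with an edgeR adjusted p of 1 for each. TIMP1 ranged from 18.6 to 79.4 CPM in females (median 28.4) and from 23.4 to 54.1 CPM in castrated males (median 42.3). Its log2 difference was -0.10 (SE 0.23). MMP14 ranged from 133 to 252 CPM in females (median 194) and from 148 to 330.1 CPM in castrated males (median 186), with a log2 difference of -0.14 (SE 0.14). For ADAMTS2 the range was 148 to 346 CPM in females (median 215) and 139.7 to 256 CPM in castrated males (median 202), with a log2 difference of 0.13 (SE 0.13). Those of MMP2, ADAM10 and ADAM17 were -0.040 (SE 0.11), -0.14 (SE 0.099) and -0.11 (SE 0.079). The 8 macrophage markers with a locus all lay below 0 between the sexes, with a median log2 difference of -0.56 and 0 passing. The 5 T cell markers with a locus also all lay below 0, with a median of -0.65 and 0 passing, although CD2, CD5, CD3D and CD8A had an unadjusted edgeR p of 0.00857, 0.0116, 0.0233 and 0.0302. Other lists lay the other way, with 0 passing in each. Above 0 were 11 of 11 matrix substrates (median 0.21) and 6 of 6 cartilage and tendon markers (median 0.54). So were 12 of 13 fibroblast and matrix markers (median 0.14) and 5 of 6 smooth muscle markers (median 0.34). The part of any of these lists in the members' values, ADAM8 and ADAM28 included, was not tested.

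Age at slaughter was tested as a slope per 10 days with sex in the model. No member passed: 0 of 42 at an adjusted p of at most 0.05 in edgeR, against 0.0% of 21587 loci, while 7 members and 1189 loci (5.51%) had an unadjusted p under 0.05. DESeq2 called 5 loci and limma-trend on FPKM 1, with 0 members in each. The signs leaned one way, with 6 of 42 members above 0 and a median slope of -0.19 on the log2 scale, where 50.2% of all loci lay above 0 and their median was 0.00083. Matrix substrates of these enzymes lay below 0 in 11 of 11 cases (median -0.26), and macrophage markers in 8 of 8 (median -0.65), with 0 passing in each list. Also below 0 were 5 of 5 T cell markers (median -0.18), 6 of 6 cartilage and tendon markers (median -0.27), 11 of 13 fibroblast and matrix markers (median -0.12) and 5 of 6 smooth muscle markers (median -0.24), while 4 of 4 adipocyte markers lay above 0 (median 0.14), again with 0 passing. The part of those cell type markers in the members' slopes was not tested.

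TIMP1 had a slope of -0.70 per 10 days (SE 0.19, unadjusted p = 0.00172, edgeR adjusted p = 0.848). The adjusted p ran from 0.274 to 1 when 1 library was left out. The slope of TIMP1 was -0.48 without female 2, where the smallest unadjusted edgeR p of any member was 0.0291. The 4 highest libraries of TIMP1, from 46.6 to 79.4 CPM, came from animals of 233 to 239 days. The lowest, female 10, came from an animal of 250 days. Castrated male 9 and female 5, of 235 and 237 days, were young and low. ADAMTS8 had a slope of -1.19 (SE 0.26, unadjusted p = 0.000160, edgeR adjusted p = 0.575, and 0.207 to 1 with 1 library left out), and -0.53 without female 2. MMP16 had the third smallest p, with a slope of -0.54 (SE 0.21). The unadjusted p also lay under 0.05 for ADAM19 (-0.48), ADAMTS1 (-0.78), ADAMTS4 (-0.97) and ADAMTS16 (-0.47). Above 0, the smallest p values were those of MMP27 at 0.15 (SE 0.25), ADAM22 at 0.090 (SE 0.23) and MMP8 at 0.17 (SE 0.45). A difference of age slopes between the sexes was called at 0 of 42 members, against 0.0% of loci, with 1 member (MMP16) and 5.42% of loci at an unadjusted p under 0.05. DESeq2 called 3 loci for that difference, with 0 members.

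**Figure D3:**
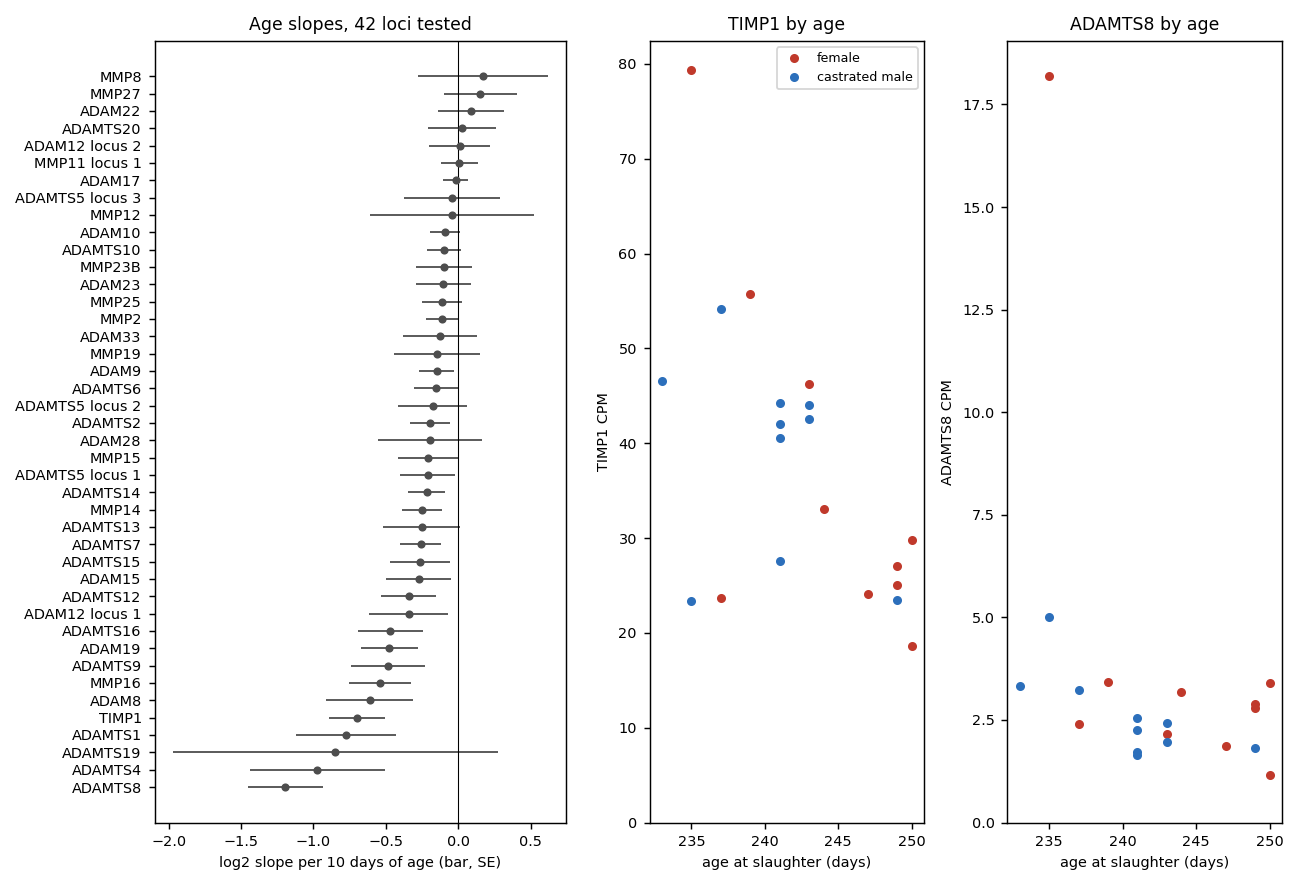
Left, log2 slope per 10 days of age with its SE for the 42 loci tested. Middle and right, CPM of TIMP1 and ADAMTS8 against age in days, with females in red and castrated males in blue. Of the slopes, 6 lie above 0, and the highest point of both genes is female 2, at 79.4 and 18.2 CPM.

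Macrophage markers varied widely between animals, and 7 members varied with them. The score was the mean z-score of 8 markers (MSR1, MRC1, C1QA, TYROBP, LYZ, CSF1R, LAPTM5 and MARCO), with no member among them. It ran from -1.77 in female 7 to 2.61 in castrated male 1. On this score edgeR called 7 of 42 members at an adjusted p of at most 0.05, against 7.95% of all loci, and 11 had an unadjusted p under 0.05, against 23.8%. Of the 7 members 5 were higher with the score (background 4.94%) and 2 lower (background 3.01%). Without castrated male 1, 3 members were called against 3.37% of loci, and these were ADAM28, ADAM19 and ADAM8, which passed with each of the 20 libraries left out in turn.

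ADAM8, a sheddase of leukocytes, ran from 2.67 to 8.94 CPM in females (median 4.02) and from 2.19 to 14.0 CPM in castrated males (median 6.12). It rose by a log2 of 0.58 per SD of the score (SE 0.10, edgeR adjusted p = 0.000663). Castrated male 1 was highest at 14.0 CPM, followed by castrated male 8 at 11.0 CPM and castrated male 6 at 10.3 CPM. ADAM28, an ADAM first known from lymphocytes, ran from 0.862 to 3.44 CPM in females (median 1.89) and from 1.19 to 10.5 CPM in castrated males (median 2.65). It rose by 0.66 (SE 0.10, edgeR adjusted p = 0.000159), and by 0.43 without castrated male 1. ADAM19, which sheds neuregulins, ran from 20.4 to 69.8 CPM in females (median 37.0) and from 25.2 to 67.2 CPM in castrated males (median 44.8). It rose by 0.43 (SE 0.072, edgeR adjusted p = 0.000511), and its highest library was female 3, not castrated male 1.

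The other 4 calls were lost when castrated male 1 was left out. That of MMP14 was kept without each other library, and that of ADAM22 also without castrated male 5. The call of ADAMTS20 was also lost without castrated male 2, 6 or 7 or female 3, 4 or 8, and that of ADAM9 without female 2, 3, 4, 5, 6, 7, 8 or 9 or castrated male 3, 5, 7, 9 or 10. MMP14 rose by a log2 of 0.22 per SD of the score (SE 0.059, edgeR adjusted p = 0.0202, from 0.00502 to 0.215 with 1 library left out). ADAM9 ranged from 91.9 to 163 CPM in females (median 115) and from 98.0 to 189 CPM in castrated males (median 116), and rose by 0.17 (SE 0.053, edgeR adjusted p = 0.0487, from 0.0143 to 0.477). ADAM22 ranged from 5.68 to 12.7 CPM in females (median 9.82) and from 3.42 to 14.7 CPM in castrated males (median 9.26). It fell by 0.38 (SE 0.10, edgeR adjusted p = 0.0258, from 0.00867 to 0.195). ADAMTS20, a versican-cutting enzyme, fell by 0.35 (SE 0.10, edgeR adjusted p = 0.0388, from 0.0184 to 0.106). The main ADAM12 locus, at 0.42 (adjusted p = 0.0528), and TIMP1, at 0.32 (adjusted p = 0.0709), did not pass.

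Genes around these enzymes were counted in the same fit. Of the furin-type activators, plasminogen activators and their inhibitors, 8 had a locus and 2 rose with the macrophage score: FURIN, which activates MMP14, MMP11 and many ADAMs, by a log2 of 0.30 (SE 0.056, adjusted p = 0.00168), and PCSK5 by 0.46 (SE 0.13, adjusted p = 0.0378). Of the 5 measured partners of ADAM10 and ADAM17, 2 rose: RHBDF2, the rhomboid-like protein that carries ADAM17 to the cell surface in leukocytes, by 0.38 (SE 0.078, adjusted p = 0.00341), and TSPAN17 by 0.25 (SE 0.063, adjusted p = 0.0151). Of the 5 genes in the list of other inhibitors, 1 fell, PCOLCE, by 0.35 (SE 0.064, adjusted p = 0.00137). PCOLCE is known as an enhancer of procollagen C-proteinase and is not itself an inhibitor of MMPs, while the MMP inhibitor RECK and A2M did not pass. Of 7 membrane substrates 1 rose, HBEGF, by 0.59 (SE 0.13, adjusted p = 0.00582), of 11 matrix substrates 1 rose, FBN1, by 0.47 (SE 0.13, adjusted p = 0.0291), and of 8 related metzincins and ADAMTS-like genes 2 rose, ADAMTSL3 by 0.40 and PAPPA2 by 0.47. Among the other cell types, 1 of 5 T cell markers (CD2), 1 of 2 neutrophil markers (CSF3R) and 1 of 13 fibroblast markers (FBN1) passed, rising with the score. The T cell markers CD3D, CD5 and CD8A rose by 0.32, 0.36 and 0.34 without passing (unadjusted edgeR p = 0.00724, 0.00972 and 0.0351). CD247 lay at -0.051. The 2 neutrophil markers summed to 36.3 CPM in castrated male 1 and to 5.63 to 14.5 CPM in females. The part of these other cell types in the members' values was not tested. The calls on these lists are not given without castrated male 1. That library was the highest of 20 in FURIN (129 CPM), RHBDF2 (62.6 CPM), HBEGF (32.6 CPM) and PAPPA2 (43.9 CPM). It was also highest in CSF3R (34.5 CPM) and CD2 (23.0 CPM), and lowest in PCOLCE (171 CPM). The highest library was another one for PCSK5, TSPAN17, FBN1 and ADAMTSL3.

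**Figure D4:**
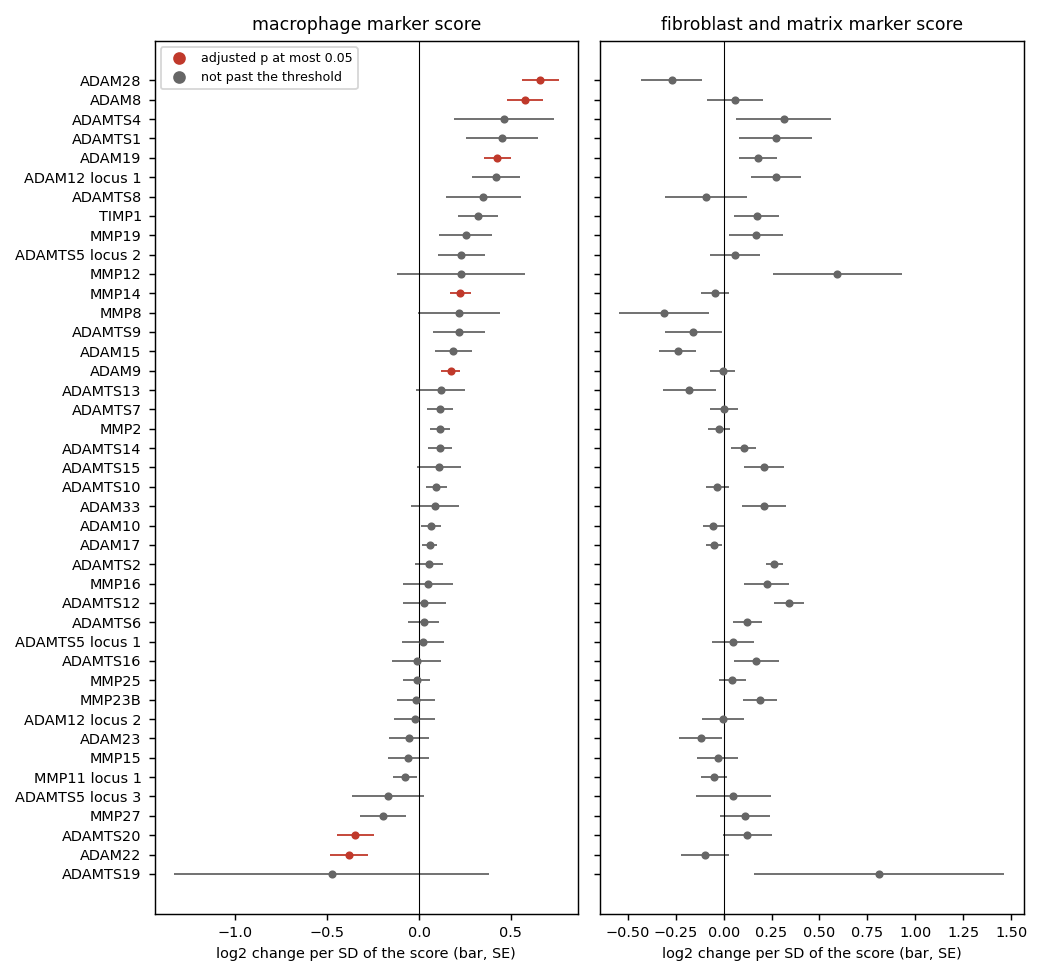
Log2 change per SD of the macrophage score (left) and of the fibroblast and matrix score (right) for the 42 loci tested, with SE bars; red points had an adjusted p of at most 0.05. The 7 red points on the left are ADAM28, ADAM8, ADAM19, MMP14, ADAM9, ADAMTS20 and ADAM22, and the right panel has none.

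The score of 13 fibroblast and matrix markers gave no call among the members. EdgeR called 0 of 42 members and 1 of 21587 loci (0.00463%), which was COL5A1, a collagen that is itself in the score. At an unadjusted p under 0.05 there were 4 members and 1709 loci (7.92%). The smallest p was that of ADAMTS2, at a log2 of 0.26 per SD (SE 0.045, adjusted p = 0.0593), which ranked behind COL5A1 alone among loci with a symbol. Its adjusted p ran from 0.0486 to 0.129 with 1 library left out and was 0.0465 with the macrophage score in the model. ADAMTS12 came at rank 10, at 0.34 (SE 0.077, adjusted p = 0.235), and MMP23B at 0.19 (SE 0.089). ADAM15 was the smallest p below 0, at -0.24 (SE 0.10), followed by ADAM28 at -0.27 (SE 0.16) and MMP8 at -0.31 (SE 0.23). Without castrated male 1 the slope of ADAM28 was 0.067 (SE 0.15), so its direction rested on that library, and that of MMP8 was -0.23 (SE 0.26).

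Pairs of enzymes with their partners or substrates were correlated over the 20 libraries on log2 CPM with sex means removed, with two-sided permutation p values (100000 permutations) adjusted over the 13 pairs measured. Another 5 pairs lacked a locus, all of them with TIMP2, TIMP3 or TIMP4. ADAMTS5 and ADAM12 were taken at their main loci. By Pearson's r 5 pairs had an adjusted p of at most 0.05, and 3 of them kept it in each of 4 alternatives.

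MMP2 and MMP14, the gelatinase and the membrane enzyme that activates it, varied together with r = 0.79 (permutation p = 4e-05, adjusted p = 0.00026) and Spearman's rho = 0.78 (permutation p = 0.00012, adjusted p = 0.00078). Their r was 0.70 without the 2 libraries farthest from the median of MMP2 and 0.77 without both libraries numbered 10. Female 8 and female 4 were lowest in MMP2, at 649.6 and 654 CPM, and lowest in MMP14, at 133 and 139 CPM. Without castrated male 1 the r was 0.75.

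MMP14 varied against COL1A2, the alpha 2 chain of type I collagen and a substrate of MMP14, with r = -0.75 (permutation p = 9e-05, adjusted p = 0.00039) and rho = -0.67 (permutation p = 0.00152, adjusted p = 0.00659). Castrated male 1 held the lowest COL1A2, at 1190.2 CPM where the mean was 3759 ± 1027 CPM (SD, n = 20), and the highest MMP14, at 330.1 CPM. Female 4 held the highest COL1A2, at 5974 CPM, and a low MMP14. Without castrated male 1 the r was -0.64, without it and female 8 -0.59, and without both libraries numbered 10 -0.73. The call was kept each time. Both are shares of the same libraries, and the part of cell type markers in this relation was not tested.

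MMP2 and COL1A2 had r = -0.55 (permutation p = 0.00849, adjusted p = 0.0223) and rho = -0.52 (permutation p = 0.0185, adjusted p = 0.0401), and ADAM17 and RHBDF2 had r = 0.56 (permutation p = 0.00857, adjusted p = 0.0223) and rho = 0.60 (permutation p = 0.00613, adjusted p = 0.0199). Neither pair kept its call when the 2 farthest libraries, both libraries numbered 10 or castrated male 1 were left out, or when FPKM replaced CPM. RHBDF2 was at 62.6 CPM in castrated male 1 and between 12.3 and 30.7 CPM elsewhere. ADAMTS2 and COL1A2 had r = 0.43 (permutation p = 0.0614, adjusted p = 0.116) and rho = 0.56 (permutation p = 0.0118, adjusted p = 0.0307).

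The other 7 pairs did not pass, and 3 of them had an r near 0. MMP2 and TIMP1 had r = 0.079 and rho = 0.16 (permutation p = 0.744 and 0.510). ADAM10 and ADAM17 had r = 0.026 and rho = 0.026 (permutation p = 0.911 and 0.916). ADAMTS1 and ADAMTS5 had r = 0.0023 and rho = -0.10 (permutation p = 0.992 and 0.675). The r was 0.42 for ADAMTS2 with ADAMTS14, -0.25 for ADAM12 with COL1A2, 0.24 for ADAMTS4 with the proteoglycan VCAN and -0.19 for ADAMTS5 with VCAN, none past an adjusted p of 0.05.

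**Figure D5:**
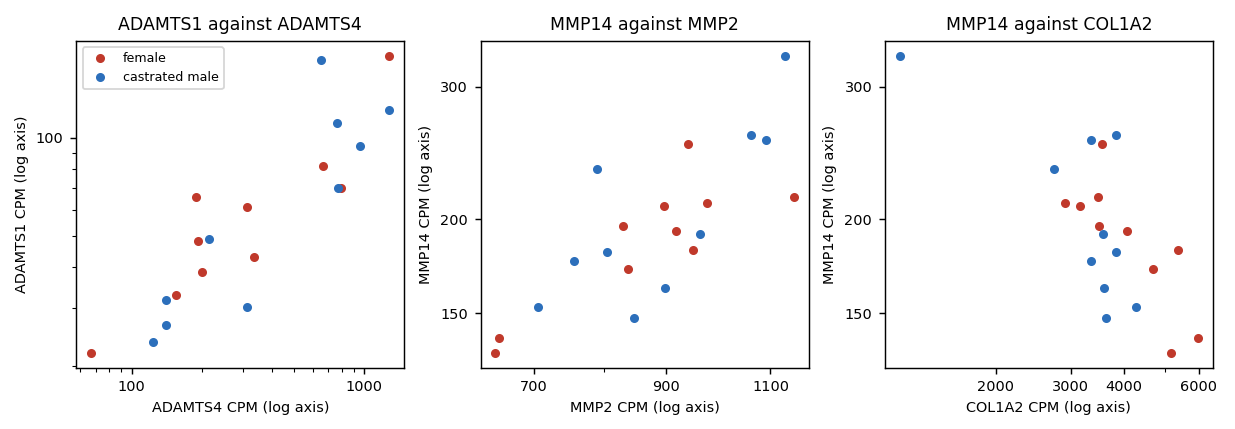
CPM of ADAMTS1 against ADAMTS4, MMP14 against MMP2 and MMP14 against COL1A2, all on log axes, with 1 point per library, females in red and castrated males in blue. The first 2 panels slope up and the third slopes down, where castrated male 1 stands alone at the lowest COL1A2, 1190.2 CPM.

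ADAMTS1 and ADAMTS4 were the most closely related pair, with r = 0.89 (permutation p = 2e-05, adjusted p = 0.00026) and rho = 0.88 (permutation p = 2e-05, adjusted p = 0.00026). The r was 0.90 without the 2 libraries farthest from the median of ADAMTS1 and 0.87 without both libraries numbered 10. On the low side of the gap in ADAMTS4, the 12 libraries gave r = 0.74 and rho = 0.66 (permutation p = 0.00646 and 0.0212). On the high side, the 8 libraries gave r = 0.32 and rho = 0.19 (exact permutation p = 0.440 and 0.665). Both within-side values were computed after the gap was seen. The split was made on ADAMTS4 itself, which narrows its range on each side. The values therefore cannot tell whether the relation differs between the sides.

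A fit of every other locus on log2 CPM of ADAMTS4 per SD, with sex in the model, was added after the data were seen. EdgeR called 3 of 41 members, all higher, against 2.14% of 21586 loci in either direction (1.19% higher and 0.95% lower). ADAMTS1, which was known to be related from the pairs, rose by a log2 of 0.84 (SE 0.10, adjusted p = 0.000246). MMP19 ran from 87.1 to 288 CPM in females (median 127) and from 106.5 to 482 CPM in castrated males (median 161). It rose by 0.59 (SE 0.074, adjusted p = 0.000293) and was highest in castrated male 6, whose ADAMTS4 was 959 CPM. ADAMTS15 ran from 84.6 to 230 CPM in females (median 121) and from 91.9 to 256 CPM in castrated males (median 156), and rose by 0.38 (SE 0.071, adjusted p = 0.00926). Each of the 3 passed with every library left out in turn, with adjusted p from 3.08e-05 to 0.00392 for ADAMTS1, from 0.000258 to 0.00156 for MMP19 and from 0.00220 to 0.0370 for ADAMTS15.

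The loci with a symbol that followed ADAMTS4 most closely were, by p, the transcription regulator CSRNP1 (0.63), ADAMTS1, MMP19, the transcription factors MAFF (0.72) and MYC (0.41), NOCT (1.02) and the kinase PLK3 (0.61), all positive log2 changes per SD. WDR76 fell by 0.28 on the same scale, and DCUN1D3 (0.43) and ANGPTL4 (0.51), an inhibitor of lipoprotein lipase, completed the 10 of smallest p. The membrane substrates HBEGF and AREG, both EGF receptor ligands, rose by 0.64 (SE 0.11, adjusted p = 0.00425) and 0.79 (SE 0.18, adjusted p = 0.0242), the 2 of 7 in that list that passed. TIMP1 did not pass, at 0.34 (SE 0.095, adjusted p = 0.0612). No macrophage marker passed on ADAMTS4 (0 of 8), although 8 of 8 lay above 0 (median 0.24). No fibroblast marker passed either (0 of 13), with 10 of 13 above 0 (median 0.10). The number of loci called in all ranged from 72 without female 2 to 948 without female 1, around 462 with all libraries.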

How the data were processed

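The authors deposited whole-number raw counts and FPKM for 23483 loci and FPKM for 63418 isoforms, all without a replicate mean, and 0 value columns were left unused. Per the submitters' processing notes, the build was Sscrofa10.2 and the tools were Cufflinks 2.1.1, TopHat2 2.0.8, DESeq2 and Bowtie2 2.1.0.0. Not given in the sources used here are each tool's role, the counter, its strand setting and its treatment of multiply matching reads, so reads of antisense or near-identical genes cannot be told apart. Symbols came from a table of gene names, which gave 9139 loci 1 symbol each, and loci spanning several identifiers held no member.

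Counts were tested over all loci with edgeR 4.0.16 in R 4.3.3: TMM factors, the filterByExpr filter (21587 loci, 42 of the 44 members), quasi-likelihood fits and Benjamini-Hochberg adjustment at 0.05. CPM were scaled by the TMM factors, with a prior count of 2 on the log2 scale. DESeq2 1.42.0 and limma 3.58.1 (limma-trend on log2(FPKM + 0.1), which understates the change of low genes) were alternatives, beside other size factors, no filter, age or the other score as a covariate, and libraries left out. Pairs, shares and figures used scipy 1.17.1, pandas 2.3.3, matplotlib 3.10.9 and numpy 2.4.6 under Python 3.11.15. Isoforms were tied to loci where their summed FPKM matched within a relative tolerance of 0.0001. The fits and the pair test were also run on simulated data with planted changes, and the outcome is not given here.

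Named with values were TIMP1, MMP2, MMP14, ADAM10, ADAM17 and ADAMTS2, the 10 members of highest FPKM, the 6 of widest spread at a mean CPM of at least 1, and in each comparison the members past the threshold or, where fewer than 3 passed in a direction, the 3 of smallest p. The members and lists were chosen with earlier results of these data known. Each library's label carries a number of its own, taken as 1 animal each, and no 2 of the libraries were identical.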

Additional observations from a re-analysis of the deposited data

Results flagged for a closer look

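In 84 groups of 10 libraries (42 members in each sex), 5 had a highest or lowest library that stood apart from the rest of its group by a large part of the group's range. Chance alone flags about 1 in 20 groups, and 5 of 84 is close to that share. ADAMTS8 stood at 18.2 CPM in female 2, where the next female had 3.42 CPM. ADAMTS19 stood at 7.87 CPM in female 1, where the next female had 1.27 CPM. ADAM9 stood at 189 CPM in castrated male 1, where the next castrated male had 135 CPM. ADAMTS5 locus 3 stood at 0.906 CPM in female 6, where the next lowest female had 3.52 CPM. ADAM12 locus 2 stood at 0.269 CPM in castrated male 4, where the next lowest castrated male had 0.429 CPM.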

How the results depend on the processing

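The counts of members called between the sexes and on age were 0 in edgeR, DESeq2 and limma-trend and with any 1 library left out, and for a difference of slopes 0 in edgeR and DESeq2. The count on the macrophage score was 7, 3 without castrated male 1, and 3 to 9 with each library left out. That on the fibroblast score was 0, 1 with the macrophage score in the model, and 0 to 1 (without castrated male 10). That on ADAMTS4 was 3, and 3 to 5 (without female 9). The pairs called fell from 5 to 3 without castrated male 1, without both libraries numbered 10, without the 2 farthest libraries and on FPKM. Signs turned, always for values that had not passed, as follows. Between the sexes, ADAMTS8 was -0.0037 in DESeq2, and TIMP1 and MMP2 were 0.090 and 0.0084 with age in the model. On age, limma-trend on FPKM gave MMP27 -0.00050, MMP8 -0.042 and ADAM17 0.031, and ADAM17 was 0.028 without both libraries numbered 10 and 0.00558 with upper-quartile factors. On the fibroblast score, ADAM28 was 0.067 without castrated male 1. Without castrated male 1, r was -0.0052 for MMP2 and TIMP1, -0.10 for ADAM10 and ADAM17 and -0.015 for ADAMTS1 and ADAMTS5, and without the 2 farthest libraries -0.013 and -0.042 for the latter pairs. With each library left out, the sex difference ran from -0.0069 to 0.83 for ADAMTS8 and from -0.089 to 0.0060 for MMP2, the age slope from -0.075 to 0.18 for ADAM22, from -0.31 to 0.50 for MMP8 and from -0.070 to 0.026 for ADAM17, and the fibroblast slope of ADAM28 from -0.45 to 0.067. The cause was not tested. No paired analysis was possible because the replicate numbers follow the order of the samples and pair no animals. Low members such as MMP12, MMP8 and ADAM12 locus 2 rest on few counts, 2 to 161, 3 to 68 and 9 to 42 per library, and intervals of depth were not computed for them.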

Other observations

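The isoforms that Cufflinks assembled at the member loci differed in number and in how far 1 of them dominated. Isoforms were tied to 43 of the 44 loci (all but ADAM9), 229 in all, of which 41 had a nearest reference transcript. MMP2, ADAMTS2, MMP25, MMP8, MMP12 and MMP13 had 1 isoform each, as had the second loci of MMP11 and ADAM12. At 35 loci several isoforms were assembled, and at 20 of these the isoform of highest mean share had no reference. ADAMTS6 had 22 isoforms, MMP27 had 20 and ADAM15 had 19.

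At ADAM17 and MMP14 one isoform held nearly all of the FPKM in every library, which was not so at the sheddases ADAM8 and ADAM19, where it held 70.5 ± 24.2% and 81.2 ± 4.23%. The leading isoform took 97.9 ± 1.03% of ADAM17 (SD, n = 20), 99.8 ± 0.31% of MMP14, 91.3 ± 4.90% of TIMP1 and 89.4 ± 3.34% of ADAM10. At ADAMTS4 it took 82.2 ± 2.33%, between 77.9 and 86.5%, although the level of the locus ranged 19.2-fold. At ADAMTS1 the leading isoform took 83.3 ± 17.7%, between 52.9 and 99.1%. At MMP19 the leading of 12 isoforms took 21.7 ± 7.79%. The share at ADAM28, a locus of low level, ran from 0.0026 to 99.97%.

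In the gene order of the RefSeq annotation of Sscrofa11.1, MMP27 lies next to MMP8, MMP12 next to MMP13 and ADAMTS8 next to ADAMTS15. The neighbours differed in level: 25.9 FPKM for MMP27 and 0.182 FPKM for MMP8, 0.371 FPKM for MMP12 and 0.0865 FPKM for MMP13, and 0.933 FPKM for ADAMTS8 and 25.9 FPKM for ADAMTS15.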
